A study of Mus musculus with 6 samples.

Results

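The surface antigens by which mammary stem and progenitor cells are sorted were followed as transcripts in 2 sorted mammary cell populations. The group held 10 genes, Cd24a, Cd44, Prom1 (CD133), Ly6a (Sca-1), Thy1 (CD90), Mme (CD10), Cd200, Kit (CD117), Cd14 and Itgb3 (CD61), out of 20660 genes that the array's probes could be matched to. Its members were found by the RefSeq accession of each probe, which gave 16 of the 55681 non-control probes. The RNA came from C57Bl6/J female mice. The fetal population was mammary cells of embryonic day 18.5 (E18.5), sorted as CD31-CD45-Ter119- cells with very bright EpCAM (EpCAM++) and CD49f. The adult population was mammary basal cells of 8 to 12 week adults that lacked CD31, CD45, Ter119 and BP-1 and carried EpCAM and CD49f. Each population was represented by 3 biological replicates, each hybridised to its own 1-colour Agilent array. None of the 10 antigens was used in these sorts. CD31 marks endothelium, CD45 leukocytes and Ter119 red cells, so the sorts were aimed against these. The fetal gate took EpCAM++ cells and left out a fetal epithelial fraction with lower EpCAM that the paper also describes. It was not divided into basal and luminal cells, whereas the adult gate took basal cells only. The fetal and adult glands were also dissociated by protocols of different length. Stage, lineage gate and dissociation therefore cannot be told apart in this comparison.

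The adult mammary epithelium is a bilayer of inner luminal cells, which line the ducts and make milk, and outer basal cells, which are largely contractile myoepithelium and include cells that regenerate a gland on transplantation. In the fetal gland most epithelial cells have not yet settled into one of these lineages, and many carry markers of both. Kit, CD14 and CD61 are used to find luminal progenitors, CD133 and Sca-1 to find hormone-sensing luminal cells, and CD10, CD90, CD200 and CD44 are found mostly on basal or stromal cells, while CD24 separates epithelium from stroma. Within adult epithelium the paper also describes luminal cells as brighter for CD24 than basal cells.

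Values are quantile-normalised log2 signals of a gene's main probe, the one with the highest mean over the 6 arrays, and differences are E18.5 fetal minus adult basal. Levels are compared between groups probe by probe, and a level says nothing of one gene against another. A gene was called changed where the Holm-adjusted p of limma was at most 0.05 and the difference at least 2-fold. The share of probes that the scanner software marked as well above background was 83.3%, 78.9% and 76.8% on fetal arrays 1 to 3 and 82.0%, 78.0% and 76.4% on basal arrays 1 to 3. No spot was saturated, and each of the 16 member probes had that mark on all 6 arrays. Slide 1 carried fetal replicate 1 with basal replicates 1 and 3, and slide 2 carried fetal replicates 2 and 3 with basal replicate 2, and differences of the main probes of the members are also given within each slide.

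The labels were first set against lineage markers. Of 12 basal markers, all had that mark on every array, 0 were higher in fetal cells and 9 were lower, with a median difference of -3.93. Myh11 (smooth muscle myosin heavy chain) differed by -8.63, Cnn1 (calponin) by -6.01, Tagln (transgelin) by -4.87 and Mylk (myosin light chain kinase) by -4.50. Trp63, the transcription factor that defines basal epithelium, was at 13.30 in fetal and 13.38 in basal cells. Of 16 luminal markers 15 were tested, 7 were higher in fetal cells and 0 lower, with a median of 2.13 over those tested and 1.35 over all 16, and Elf5, Aldh1a3, Foxa1 and Ehf were 7.55, 7.11, 6.46 and 2.32 higher, Ehf by 4.96 with the mean of its probes. Foxa1 lost its call without fetal replicate 1, 2 or 3 or basal replicate 3 (Holm-adjusted p up to 0.142), and Ehf without fetal replicate 1 or 2 (p up to 0.0577 by limma and Holm). With Benjamini-Hochberg 8 were higher and 2 lower, the lower ones being the luminal keratin genes Krt19 (-1.22) and Krt7 (-1.29). The basal list was thus measured in both populations and higher in the one labelled basal. These are bulk populations, in which fewer cells of a type and less RNA per cell cannot be told apart.

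Of the 10 antigens, Kit, Prom1 and Cd24a rose and Ly6a, Mme and Cd200 fell in E18.5 fetal cells, while Thy1, Itgb3, Cd44 and Cd14 were not called. That is 6 called members of 10, 3 in each direction, beside 11.1% of all 20448 tested probes called, 5.92% as higher and 5.18% as lower. With the Benjamini-Hochberg adjustment in place of Holm the same 3 were higher and 5 were lower, Thy1 and Itgb3 being added, where 30.0% of tested probes were called, 14.0% as lower. The 3 fetal arrays did not overlap the 3 basal arrays for 9 of the 10 main probes and 14 of the 16 probes, against 69.0% of tested probes. The members' median absolute difference was 2.22 and their median difference -1.07, where those of all tested probes were 0.55 and -0.03. All 6 called members had the same direction within both slides. The SD was smaller over the fetal than over the basal arrays for 8 of 10 members, the exceptions being Mme and Cd200. Over all tested probes, too, the median SD was smaller in fetal (0.12) than in basal arrays (0.18).

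**Figure D1:**
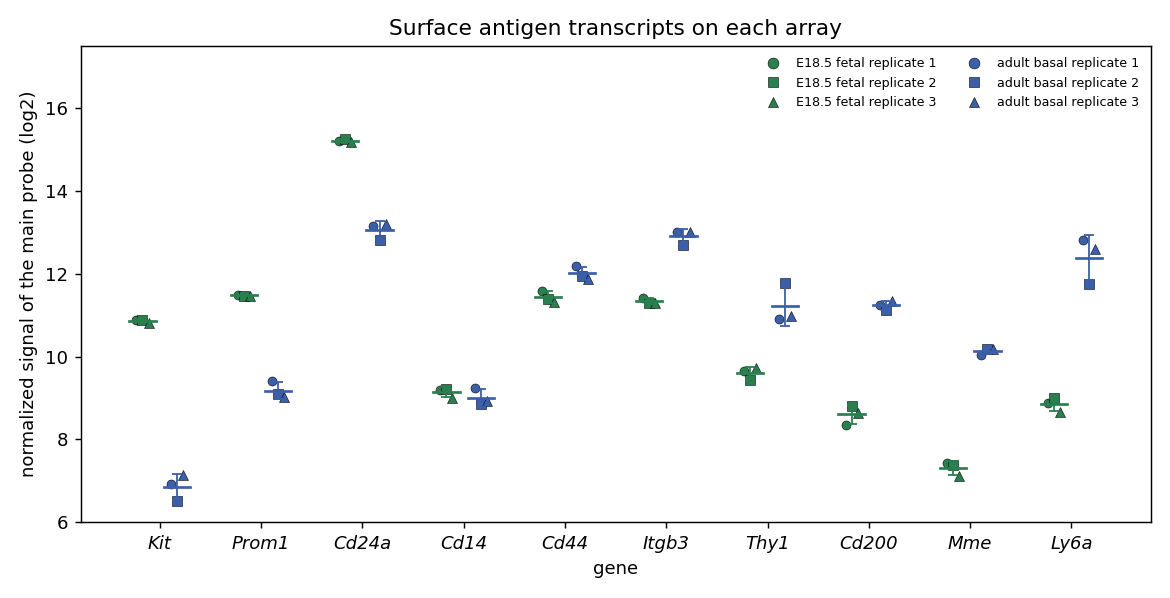
Normalised log2 signal of the main probe of each of the 10 antigens (vertical axis) on the 3 E18.5 fetal arrays (green) and the 3 adult basal arrays (blue), with genes ordered along the horizontal axis from the most positive to the most negative difference. Bars give the mean and SD (n = 3 each). The fetal arrays lie above the basal arrays for Kit, Prom1 and Cd24a, mix with them for Cd14, and lie below them for the other 6 genes.

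**Figure D2:**
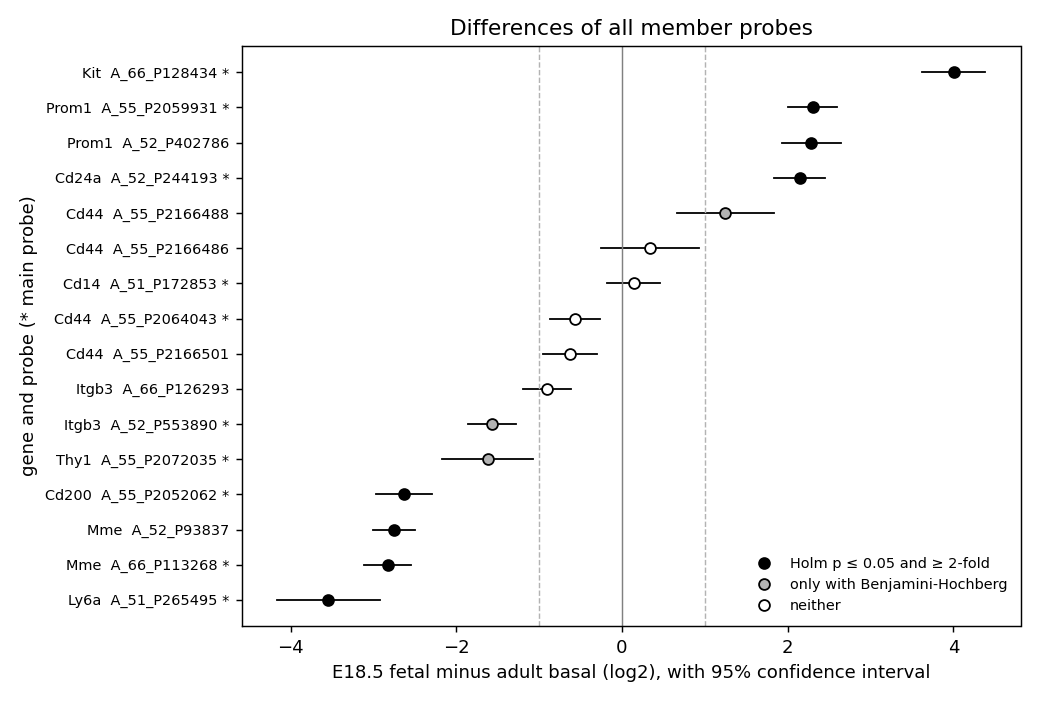
Difference in log2 signal, E18.5 fetal minus adult basal, of each of the 16 member probes, with its 95% confidence interval from limma (3 against 3 arrays). Filled points passed Holm and 2-fold, grey points passed only with Benjamini-Hochberg, open points neither, and dashed lines mark 2-fold. The probes of Prom1 and of Mme agree in size, whereas the 4 probes of Cd44 lie on both sides of 0.

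Kit, the receptor tyrosine kinase for stem cell factor, showed the largest difference of the 10. The fetal arrays read 10.87, 10.89 and 10.82, and the basal arrays 6.92, 6.52 and 7.13. The fetal arrays lay within a narrow band far above every basal array. The means were 10.86 ± 0.04 and 6.86 ± 0.31 (SD, n = 3 each), a difference of 4.003 (SE 0.16) or 16.04-fold, with a limma Holm-adjusted p of 0.000642. Only 3.32% of tested probes had a larger absolute difference. Within slides the difference was 3.84 and 4.34.

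Prom1, a pentaspan membrane protein of cell protrusions, read 11.50, 11.47 and 11.46 in fetal and 9.40, 9.10 and 9.02 in basal cells. Every fetal array was above every basal array. The difference was 2.30 (SE 0.12), 4.93-fold, with a limma Holm-adjusted p of 0.00488, and it was 2.28 and 2.37 within the slides. The other Prom1 probe, at lower signal, read 6.96, 6.86 and 7.07 against 4.93, 4.39 and 4.71 and gave a nearly equal difference of 2.29. Its basal values lay below the cut of the filter on low signal (5.95), which the probe passed through its fetal values alone. The Prom1 call was lost, with Holm-adjusted p of 0.109, 0.0934 and 0.0826, when fetal replicate 1, 2 or 3 was left out, at differences of 2.30 each time.

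The promoters of Kit and Prom1 are shown because these are the members that rose most, from 250 bases before to 50 bases after the start listed first in RefSeq (build GRCm38.p6). Both strands were searched for 3 motifs. The GC box, bound by Sp-family factors, was searched as GGGCGG. The ETS core, within sites bound by ETS factors such as Elf5 and Ehf, was searched as AGGAAG. The TATA box of core promoters was searched as TATAAA. No matches shared letters, and capitals mark them.
Kit (chr5:75574737-75575036, plus strand): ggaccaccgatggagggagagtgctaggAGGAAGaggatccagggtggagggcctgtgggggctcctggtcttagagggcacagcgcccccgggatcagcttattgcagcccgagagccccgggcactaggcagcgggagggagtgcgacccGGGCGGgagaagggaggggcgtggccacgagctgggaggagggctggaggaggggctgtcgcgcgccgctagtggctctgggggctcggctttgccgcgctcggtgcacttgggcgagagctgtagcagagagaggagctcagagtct
Prom1 (chr5:44101687-44101986, minus strand): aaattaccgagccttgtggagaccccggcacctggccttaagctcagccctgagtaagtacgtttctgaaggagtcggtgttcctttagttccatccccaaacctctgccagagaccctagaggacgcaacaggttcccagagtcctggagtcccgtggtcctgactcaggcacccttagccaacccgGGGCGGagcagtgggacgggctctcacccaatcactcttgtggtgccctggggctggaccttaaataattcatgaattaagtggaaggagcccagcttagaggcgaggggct
The Kit window held 1 GC box match and 1 ETS core match and the Prom1 window 1 GC box match alone, and neither held a TATA box match. Of 27025 promoters of the same length, 35.9% held the GC box letters, 35.1% the ETS core letters and 14.2% those of the TATA box. A match describes the letters of the window and is not a bound site.

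Other Kit-bearing lineages and the Kit ligand were read from the same arrays. Kitl, which encodes stem cell factor, was 9.88, 9.54 and 9.87 in fetal and 11.16, 11.31 and 11.55 in basal cells. Every fetal array was below every basal array, with a difference of -1.58 (limma Holm-adjusted p = 0.210, Benjamini-Hochberg-adjusted p = 7.47e-05). Of 9 mast cell markers 8 were measured and 4 tested. None passed Holm, and Cpa3, a mast cell protease, passed Benjamini-Hochberg at 5.90, 5.92 and 8.54 against 3.95, 3.87 and 3.88, so that fetal replicate 3 stood apart. Only 1 of the 3 basal arrays measured it well above background, so the size of its difference is not exact, and without fetal replicate 3 it passed Holm (limma Holm-adjusted p = 0.0345). Fcer1a and Ms4a2, chains of the mast cell IgE receptor, had no array on which they were well above background. Summed over the list the linear signal was 2704, 2842 and 2882 in fetal and 2966, 3042 and 3387 in basal cells, with Tpsb2 the brightest (the highest mean log2 signal over both groups, here and for the lists that follow). Tpsb2, which differed by -0.36, made up most of that sum, so it says little of the other markers.

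Of 8 melanocyte markers 6 were tested. None passed Holm, and Dct, a melanin synthesis enzyme, passed Benjamini-Hochberg at 6.11, 6.81 and 7.59 against 4.90, 4.47 and 4.33. Tyrp1 lay near background on each array, below the scanner's mark. The list's summed signal was 14203, 14966 and 17612 in fetal and 15879, 11895 and 13194 in basal cells, with Sox10 the brightest. Sox10 read 13.46, 13.55 and 13.83 in fetal and 13.76, 13.18 and 13.39 in basal cells and made up most of that sum. The sum therefore says little of Dct, which was 2.27 higher in fetal cells. Of 7 erythroid markers 4 were tested and none passed Holm. The beta-globin gene Hbb-bt passed Benjamini-Hochberg, at 6.33, 9.28 and 9.29 in fetal cells, whereas no basal array measured it above background. The list summed to 1791, 2996 and 2720 in fetal and 1607, 2220 and 1606 in basal cells, with Slc4a1 the brightest. The median differences over the tested markers of the mast cell, melanocyte and erythroid lists were 0.31, 0.38 and 0.31. The part of these lineages in the Kit difference was not tested.

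Cd24a, a small glycosylated anchor protein that marks epithelial cells, read 15.21, 15.24 and 15.17 in fetal and 13.16, 12.81 and 13.21 in basal cells. The fetal arrays agreed to within 0.04 (SD, n = 3) and all lay above the basal arrays, whose SD was 0.22. The difference was 2.15 (SE 0.13), 4.43-fold, with a limma Holm-adjusted p of 0.0111, and it was 2.02 and 2.40 within the slides. Its call was lost, at differences between 2.13 and 2.23, when fetal replicate 1, 2 or 3 or basal replicate 1 or 3 was left out (Holm-adjusted p from 0.0548 to 0.215). Of its counter-receptors, Selp (P-selectin) differed by -0.73 and Siglecg by -0.12, and neither was called.

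Cd14, the co-receptor for bacterial lipopolysaccharide and a marker of adult luminal progenitors, was the member whose groups overlapped. It read 9.20, 9.23 and 8.997 in fetal and 9.24, 8.84 and 8.92 in basal cells. The highest array was a basal one, and the difference of 0.14 had a 95% confidence interval from -0.18 to 0.46, which leaves out a 2-fold change in either direction. Within the slides it was 0.12 and 0.27. Tlr4, the signalling receptor for the same ligand, differed by -1.41 (Benjamini-Hochberg-adjusted p = 0.00132, Holm-adjusted p = 1, limma), and its binding partner Ly96 (MD-2) by 0.23. Lbp, which hands lipopolysaccharide to CD14, read 8.32, 8.43 and 8.21 in fetal and 7.19, 6.97 and 7.49 in basal cells, 1.105 higher without overlap (Benjamini-Hochberg-adjusted p = 0.000473, Holm-adjusted p = 1, limma). Since CD14 is also a myeloid antigen, 15 leukocyte markers were read, of which 14 were measured and 13 tested. None passed Holm, and with Benjamini-Hochberg Lck was higher and Lyz2, Tyrobp, Fcgr3 and Coro1a were lower in fetal cells, with a median difference of -0.31 over the 13. Ptprc, which encodes CD45, differed by -0.31. Tyrobp, a myeloid signalling adaptor, was 5.03, 5.17 and 6.01 against 7.82, 7.16 and 9.64, highest in basal replicate 3. The list's summed signal was 39155, 33602 and 31414 in fetal and 27187, 36875 and 31099 in basal cells, with Itgam the brightest. Itgam and Csf1r, which differed by 0.24 and -0.06, made up most of that sum, so it says little of the lower markers. The part of leukocytes in the Cd14 values was not tested.

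Itgb3, the integrin subunit CD61, was lower in fetal cells with both of its probes. The main probe read 11.42, 11.30 and 11.30 in fetal and 13.01, 12.69 and 13.002 in basal cells. The groups were well separated, by -1.56 (95% confidence interval -1.85 to -1.28) overall and by -1.59 and -1.39 within the slides. The limma Holm-adjusted p was 0.0620, just past the threshold, and the Benjamini-Hochberg-adjusted p 2.92e-05. The second probe read 6.70, 6.83 and 6.80 against 7.88, 7.51 and 7.65, a difference of -0.91. Leaving out basal replicate 2 brought the main probe past Holm, at -1.66 and a limma Holm-adjusted p of 0.0279.

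Of the 2 alpha subunits that pair with CD61, Itgav was called and Itga2b was not. Itgav, the alpha chain of the vitronectin receptor, fell from 10.74, 10.60 and 10.65 in basal to 8.98, 8.73 and 8.68 in fetal cells, a difference of -1.87 with a limma Holm-adjusted p of 0.0132. Its call was lost when fetal replicate 1, 2 or 3 or basal replicate 1 or 3 was left out (Holm-adjusted p from 0.0574 to 0.217). Itga2b, the platelet alpha chain, differed by -0.73. Of the matrix ligands, Fn1 differed by -0.94 and Vtn by -0.57, neither called, and Spp1 was removed by the filter on low signal.

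Ly6a, a lipid-anchored Ly6 protein that is induced by interferon in many tissues, showed the largest fall of the 10. It read 8.87, 8.99 and 8.67 in fetal and 12.80, 11.76 and 12.60 in basal cells. All basal arrays were far above the fetal arrays, although basal replicate 2 was about 1 log2 unit below its fellows. The means were 8.85 ± 0.16 and 12.39 ± 0.55 (SD, n = 3 each), a difference of -3.54 (95% confidence interval -4.16 to -2.92), 11.7-fold, with a limma Holm-adjusted p of 0.0428. Within slides it was -3.83 and -2.93, and with slide as a block -3.38 (limma Holm-adjusted p = 0.0569), where it was not called. The call rests on a narrow margin: it was lost when fetal replicate 1, 2 or 3 or basal replicate 1 or 3 was left out (Holm-adjusted p from 0.213 to 0.593), at differences between -3.33 and -3.61, and it was kept without basal replicate 2 (Holm-adjusted p = 0.000857, limma).

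Relatives of Ly6a in the Ly6 family went both ways. Ly6d, which marks luminal and squamous cells, rose in fetal cells, at 14.61, 14.66 and 14.54 against 11.09, 10.51 and 10.20, by 4.004 (limma Holm-adjusted p = 0.00502). Ly6c1 fell, at 9.99, 10.31 and 9.91 against 13.40, 12.68 and 13.31, by -3.06 (Holm-adjusted p = 0.0265), and whether its probe also reads the close copy Ly6c2 was not tested. With the mean of its probes the Ly6c1 difference was -2.09. Ly6c1 was lowest in the same basal replicate as Ly6a. Leaving out fetal replicate 1, 2 or 3 removed both calls (Holm-adjusted p up to 0.107 for Ly6d and 0.416 for Ly6c1), and leaving out basal replicate 1 or 3 removed that of Ly6c1, as did slide as a block (-2.97, limma Holm-adjusted p = 0.0875). Ly6e and Ly6g6c differed by -0.77 and 0.58 and were not called.

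Interferon-induced genes were read beside Ly6a. Of 15 such genes 14 were measured and 13 tested. None was higher in fetal cells, 7 fell with Holm and 13 with Benjamini-Hochberg, and their median difference was -4.27. Usp18, Ifi44, Isg15 and Irf7 differed by -5.40, -5.27, -4.55 and -3.63. Without basal replicate 1 or 3 or fetal replicate 1 the number that fell with Holm was 4, Ifi44 being lost without any array but fetal replicate 2 and with slide as a block (limma Holm-adjusted p = 0.223). The list's linear signal summed to 6303, 7761 and 5738 in fetal and to 95618, 53162 and 67954 in basal cells, with Irf9 the brightest. Basal replicate 2 was the lowest basal array for the list's summed signal as for Ly6a. It was also the lowest basal array, by smaller gaps, for the main probes of Cd24a, Cd200, Kit, Cd14 and Itgb3. For those of Thy1, Mme, Prom1 and Cd44 it was not the lowest, and what this rank reflects was not tested. Endothelium is another source of Sca-1: of 10 endothelial markers 8 were tested, none passed Holm, and with Benjamini-Hochberg 5 were lower in fetal cells, namely Cdh5, Emcn, Vwf, Cldn5 and Esam. Pecam1, which encodes CD31, differed by -0.14. The endothelial list summed to 14332, 13008 and 15093 in fetal and 14434, 15179 and 13235 in basal cells, with Kdr the brightest, while the median difference of the 8 tested markers was -1.48 and 7 of them were lower in fetal cells. The part of the interferon genes and of endothelium in the Ly6a difference was not tested.

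**Figure D3:**
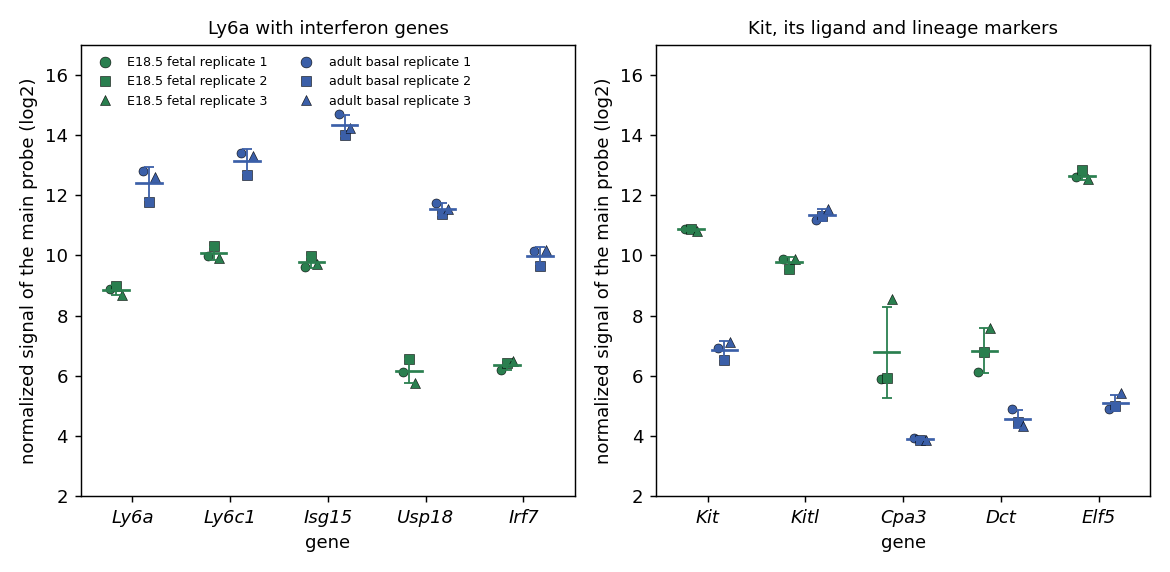
Normalised log2 signal of the main probe on the 3 E18.5 fetal arrays (green) and the 3 adult basal arrays (blue), with the mean and SD (n = 3 each). At left, Ly6a and Ly6c1 lie lower in fetal cells beside the interferon-induced genes Isg15, Usp18 and Irf7. At right, Kit is higher and its ligand Kitl lower in fetal cells, Cpa3 is scattered by fetal replicate 3, and the luminal factor Elf5 is shown for comparison.

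Mme, a membrane metallopeptidase that cleaves small peptides and marks myoepithelium, fell in fetal cells with both probes. The main probe read 7.44, 7.37 and 7.11 in fetal and 10.05, 10.17 and 10.19 in basal cells, and the second 7.32, 7.24 and 7.09 against 9.91, 9.93 and 10.07. Both probes kept the groups apart by more than 2 log2 units. The differences were -2.83 (SE 0.12, limma Holm-adjusted p = 0.000985) and -2.75 (SE 0.11, Holm-adjusted p = 0.000578), and for the main probe they were -2.68 and -2.93 within the slides. Among related metallopeptidases Ace differed by -0.89 and Ece1 by 0.02, neither called, and Mmel1 was removed by the filter on low signal.

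Cd200, an immunoglobulin-family protein that restrains myeloid cells through its receptor, was at 8.35, 8.81 and 8.64 in fetal and 11.24, 11.12 and 11.34 in basal cells. The fetal arrays were the more scattered here, and all lay below the basal arrays. The difference was -2.63 (SE 0.14), 6.20-fold, with a limma Holm-adjusted p of 0.00519, and it was -2.94 and -2.39 within the slides. Its call was lost when fetal replicate 3 or basal replicate 1 or 3 was left out, with Holm-adjusted p of 0.0796, 0.0802 and 0.0537. The receptor gene Cd200r1 was not well above background on the fetal arrays.

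The promoters of Mme and Cd200 are shown as those of members that fell, in the same window and with the same marks as for Kit and Prom1.
Mme (chr3:63294961-63295260, plus strand): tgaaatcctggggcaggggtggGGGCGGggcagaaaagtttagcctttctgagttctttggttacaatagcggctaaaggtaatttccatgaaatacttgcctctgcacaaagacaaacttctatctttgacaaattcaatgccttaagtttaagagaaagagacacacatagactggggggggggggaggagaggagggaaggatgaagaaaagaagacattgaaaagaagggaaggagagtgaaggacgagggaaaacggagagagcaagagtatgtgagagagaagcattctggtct
Cd200 (chr16:45409004-45409303, minus strand): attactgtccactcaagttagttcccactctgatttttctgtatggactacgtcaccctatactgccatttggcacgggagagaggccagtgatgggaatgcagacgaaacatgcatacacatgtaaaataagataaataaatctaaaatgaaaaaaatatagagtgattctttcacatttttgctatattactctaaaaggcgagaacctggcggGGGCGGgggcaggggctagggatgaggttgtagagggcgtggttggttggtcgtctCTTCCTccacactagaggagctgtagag
The Mme window held 1 GC box match and no other, and the Cd200 window 1 GC box and 1 ETS core match. Promoters were at hand for 5 members, and the window of Cd44, the remaining one, held 1 GC box and 3 ETS core matches. The GC box letters were thus in the windows of members that rose and of members that fell, and those of the TATA box were in none of the 5.

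Thy1, a lipid-anchored immunoglobulin-family protein of fibroblasts, T cells and some basal cells, read 9.64, 9.44 and 9.72 in fetal and 10.92, 11.78 and 10.98 in basal cells. The groups did not overlap, and basal replicate 2 stood above the other basal arrays. The difference was -1.62 (95% confidence interval -2.17 to -1.07). The limma Holm-adjusted p was 1 and the Benjamini-Hochberg-adjusted p 0.000663. Within slides it was -1.30 and -2.20, the larger being on the slide that carries basal replicate 2.

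Thy1 also marks stroma, which both sorts were set to leave out by taking EpCAM-bearing cells, the adult one also by removing BP-1-bearing cells. On these arrays 12 fibroblast markers were read, of which 11 were tested. None was higher in fetal cells and 3 fell: Pdgfrb by -4.34, Dcn (decorin) by -3.78 and Pi16 by -2.98. With Benjamini-Hochberg 5 were lower, Lum (-1.05) and Twist2 (-2.20) being added, and the median difference over the 11 was -0.97, all of them lower in fetal cells. The call of Pdgfrb held whichever array was left out, that of Dcn was lost without fetal replicate 1 (Holm-adjusted p = 0.0527) and that of Pi16 without fetal replicate 1, 2 or 3 or basal replicate 2 (Holm-adjusted p up to 0.273) and with slide as a block (Holm-adjusted p = 0.0942). The collagen genes Col1a1 and Col3a1 differed by -0.01 and -0.89 and were not called. The list's summed signal was 6384, 6569 and 8046 in fetal and 17747, 20238 and 28808 in basal cells, with Col1a2 the brightest. The part of stromal cells in the Thy1 difference was not tested.

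Cd44, the hyaluronan receptor, had 4 probes, and they did not go the same way. The main probe read 11.59, 11.40 and 11.33 in fetal and 12.19, 11.96 and 11.88 in basal cells, a difference of -0.57 (95% confidence interval -0.87 to -0.27) that was -0.44 and -0.59 within the slides, and probe A_55_P2166501 gave -0.63. Probe A_55_P2166488 read 8.59, 8.25 and 8.18 against 7.61, 7.03 and 6.64, a difference of 1.25 (95% confidence interval 0.66 to 1.83), and probe A_55_P2166486 gave 0.34 with overlapping groups. None of the 4 passed Holm, and A_55_P2166488 alone passed 2-fold with Benjamini-Hochberg (limma, adjusted p = 0.00347). The mean of the probes differed by 0.10, opposite in sign to the main probe.

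Since the probes of 1 gene are read on the same array, their gap can be given within arrays. The signal of A_55_P2166488 minus that of the main probe came to -3.00, -3.15 and -3.14 in fetal and to -4.58, -4.92 and -5.24 in basal cells. These gaps did not overlap. They restate, array by array, the opposite directions of the probes, for which the pair was picked after its values were seen, and carry no test. Which Cd44 transcripts each probe reads was not tested here. Of the enzymes that make hyaluronan, Has2 differed by 1.22 and Has1 by -1.73, both passing Benjamini-Hochberg and not Holm, and Has3 by -0.18. Hmmr, a second hyaluronan receptor that is also a mitotic gene, differed by 1.55 (Holm-adjusted p = 0.117).

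**Figure D4:**
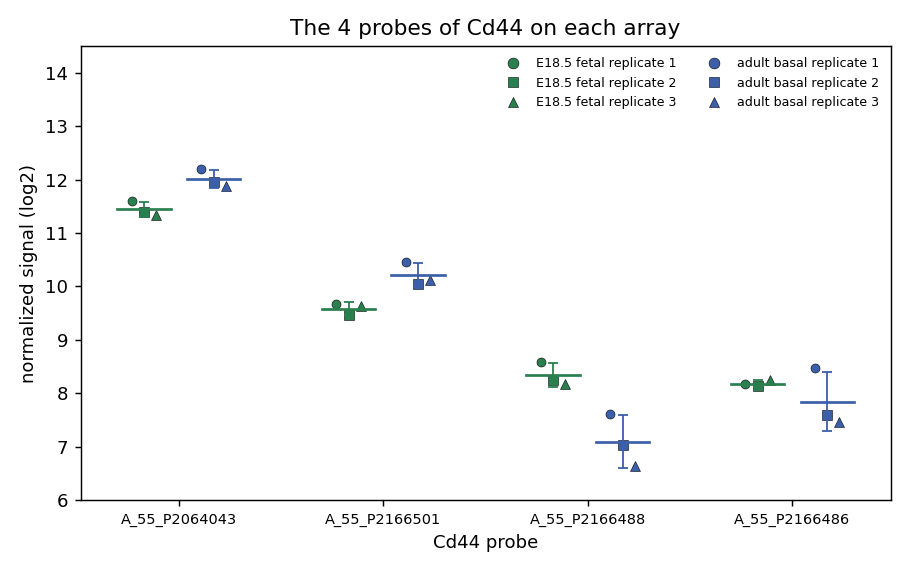
Normalised log2 signal of the 4 Cd44 probes on the 3 E18.5 fetal arrays (green) and the 3 adult basal arrays (blue), with the mean and SD (n = 3 each). The fetal arrays are below the basal arrays for the left pair of probes, above them for A_55_P2166488, and overlap them for A_55_P2166486.

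The 24 partners of the antigens (ligands, co-receptors, subunits and relatives) included 21 tested genes. Of these Ly6d was called higher and Itgav and Ly6c1 lower, which is 3 of 21 beside 11.1% of all tested probes. The median difference was -0.57 over those tested and -0.37 over all 24. Benjamini-Hochberg called 4 higher (Ly6d, Hmmr, Has2 and Lbp) and 5 lower, beside 30.0% of all tested probes. Prom2, the paralog of Prom1, differed by 0.67 and was not called.

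Other antigens by which mammary cells have been sorted gave 22 tested genes of 23, with a median difference of -0.42, or -0.48 over all 23. Of these 2 were called higher and 4 lower in fetal cells, beside 11.1% of all tested probes called. Benjamini-Hochberg called 6 higher and 5 lower, beside 30.0% of all tested probes. Alcam, an adhesion molecule of the immunoglobulin family, was at 11.45, 11.18 and 11.25 in fetal and 7.39, 7.502 and 7.58 in basal cells, 3.80 higher (limma Holm-adjusted p = 8.19e-05). Tspan8 had a larger difference of 4.10 but passed only Benjamini-Hochberg (limma, adjusted p = 0.00396), its basal arrays being scattered at 10.12, 9.24 and 6.42. Epcam, the other gene called higher, was one of the sorting antigens, and the gates differed in it (very bright in the fetal and lower in the adult sort), so that its difference of 1.88 is given as a description. Itga6, which encodes CD49f, the antigen shared by both gates, differed by 0.01.

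The lower antigens were led by Procr, the protein C receptor that has been used to sort basal stem cells. It read 6.26, 6.07 and 6.37 in fetal and 10.81, 11.13 and 11.31 in basal cells, a difference of -4.85 (limma Holm-adjusted p = 0.000128). Nt5e (CD73), which makes adenosine, differed by -4.60, Cd47, which restrains phagocytosis, by -2.55 and Itga5, the fibronectin receptor chain, by -1.82. The calls of Procr, Nt5e, Cd47 and Alcam held without any 1 array, whereas that of Itga5 was lost without any of the 6 arrays (Holm-adjusted p from 0.0697 to 0.419) and that of Epcam without any but basal replicate 1 (Holm-adjusted p up to 0.403). With slide as a block neither was called (limma Holm-adjusted p = 0.144 for Itga5 and Holm-adjusted p = 0.152 for Epcam). Lgr5, an R-spondin receptor of stem cells, read 14.14, 14.12 and 14.12 in fetal and 12.00, 11.58 and 10.87 in basal cells, a difference of 2.64 (limma Holm-adjusted p = 0.279, Benjamini-Hochberg-adjusted p = 9.35e-05). Enpep, which encodes the BP-1 antigen removed from the adult sort, stayed near background throughout.

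**Figure D5:**
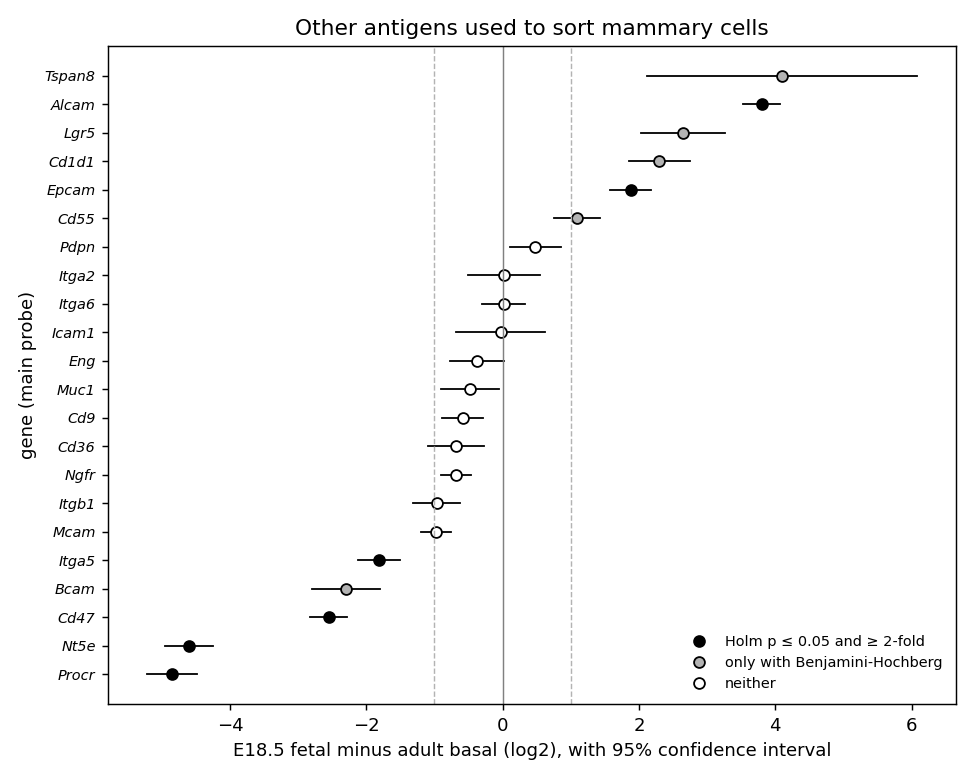
Difference in log2 signal, E18.5 fetal minus adult basal, of the main probes of 22 other sorting antigens, with the 95% confidence interval from limma (3 against 3 arrays). Filled points passed Holm and 2-fold, grey points passed only with Benjamini-Hochberg, open points neither, and dashed lines mark 2-fold. Alcam and Epcam lie to the right among the filled points and Itga5, Cd47, Nt5e and Procr to the left.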

How the data were processed

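RNA from 3 biological replicates of each population was hybridised to Agilent SurePrint mouse arrays. The labels name a Low Input Quick Amp labelling kit and the methods its whole-transcript exon version. Images were quantified by the authors in Feature Extraction 11.0.1.1 (Agilent), and the deposited scanner files give linear spot intensity, background subtracted within the array (the processed signal), beside raw intensity. The deposited series matrix holds the authors' log2 values, used as an alternative only. No per-sample columns of other samples were present (0 left out).

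Outlier spots were removed, spots of a probe averaged, and the processed signal was quantile normalised over 6 arrays on the log2 scale with limma 3.58.1 in R 4.3.3. Accessions matched 27235 probes to RefSeq genes, and the array's design build (mm9) differs from that of the gene table. One-dimensional k-means (3 clusters, 100 starts, seed 1) on group means removed probes lowest in both groups, leaving 20448, which were fitted with lmFit and eBayes. Calls required a Holm-adjusted p of at most 0.05 over all tested probes and 2-fold. The fit was tested on simulated data. The p-values measure the spread between replicates that the labels call biological.

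The text names all 10 members, up to 4 called genes with the largest difference per list among probes above background on all arrays, and known ligands or subunits. Other named genes (further antigens, called or not, partners and lineage markers beside Kit, Ly6a, Thy1 and Cd14) were chosen after their values were seen. Members and lists were chosen with earlier results of these data known. Lists are described by counts and medians, without a test. Each count is to be read beside the share of all tested probes called, 11.1% with Holm and 30.0% with Benjamini-Hochberg. Alternatives covered normalisation, background correction by normexp (offset 50), offset (16), filter, probe matching, variance model, adjustment, probe averaging, slide and replicate blocks, and leaving out each array.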

Additional observations from a re-analysis of the deposited data

How the results depend on the processing

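Of 18 alternative settings, none reversed a call among the named genes, and the calls of Kit (3.42 to 4.15) and Mme (-2.91 to -2.40) were kept in all 18. The 3 members called higher became 1 to 3 when single arrays were left out, 1 without fetal replicate 1, 2 or 3. The 3 called lower became 1 to 4, with 1 without fetal replicate 3, basal replicate 1 or basal replicate 3. Over all tested probes the calls fell too, from 2270 to 948, 974 and 1055 without fetal replicate 1, 2 or 3. Without basal replicate 1, 2 or 3 they were 1469, 1949 and 1327. Benjamini-Hochberg gave 5 lower members, 13 interferon-induced genes (7 with Holm), 11 other antigens (6 with Holm) and 9 partners (3 with Holm). Without the filter on low signal, where more probes are adjusted over, 4 interferon-induced genes and 0 partners were called, and trend and robust eBayes called 5 partners. Leaving out single arrays gave 4 to 8 interferon-induced genes, 4 to 6 other antigens and 0 to 3 partners. Ly6a lost its Holm call in 11 settings, among them the slide block, under which Epcam, Itga5, Ly6c1, Ifi44 and Pi16 lost theirs too, all probes (limma Holm-adjusted p = 0.106) and trend and robust eBayes (adjusted p = 0.0552), and Cd24a in 7. Itgb3 gained a Holm call in 4 settings and a call with Benjamini-Hochberg. Background correction by normexp kept the calls of Procr, Pdgfrb, Pi16, Usp18 and Irf7 at smaller differences (-3.99, -2.92, -2.05, -4.48 and -2.86). Cd44 moved from -0.57 with its main probe to 0.10 with the mean of its probes.

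Replicate numbers did not pair the arrays: deviations of same-numbered arrays from their group means correlated at -0.03, 0.09 and 0.05. With the replicate block, 1 lower member (Mme), 2 higher members and 1 partner were called, 1302 probes in all against 2270, with limma Holm-adjusted p = 0.0542 for Cd200, adjusted p = 0.121 for Cd24a and adjusted p = 0.172 for Ly6a.

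Precision is limited by 3 arrays a group. Signal near background sets only bounds, but all member probes were above it.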
